A study of Mus musculus with 30 samples.

Results

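Mitosis genes encode the proteins that condense, align and separate chromosomes and then cut the cell apart. Their messenger RNA was followed over a day in the retinal pigment epithelium (RPE), the pigmented sheet behind the photoreceptors. The 44 genes described here were taken by name, as 44 of the 51904 genes in the expression table, from textbook roles in mitosis. They were picked after such genes had been seen to stand higher at ZT0 than at ZT19 in these same samples (ZT: zeitgeber time, hours on the light schedule). Their course over the day is therefore given as a description with no p-value, and tests are kept for measures other than time of day. The genes and the marker lists were set with earlier results of these data known, which those tests do not allow for. All 44 were in the table and all 44 passed the filter on low values, an FPKM (reads per gene corrected for its length and for depth) of at least 1 in at least 5 of 30 samples.

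The samples came from 30 male wild type C57BL/6 mice of 10 to 13 weeks, with 5 mice killed at each of ZT0, 2, 4, 9, 14 and 19. The labels give these as clock hours 7, 9, 11, 16, 21 and 2. No group carried a treatment or an altered allele, each mouse gave 1 eye, and the replicates were separate animals. Cornea, iris, lens and retina were dissected away and clumps of RPE were then taken off the choroid with forceps, so the purity of each sample rested on that dissection.

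In a dividing cell, messages of mitosis genes build up late in the cycle, peak as the nucleus divides and are lost as the cell returns to rest. Many of their promoters carry a CHR (cell cycle genes homology region) and CCAAT boxes, through which the DREAM complex keeps the genes silent in resting cells and B-MYB, FOXM1 and NF-Y raise them in cycling ones. Adult mouse RPE is held to divide very little, whereas the corneal epithelium at the front of the eye renews itself and divides with a daily rhythm in rodents.

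Sample depth lay between 12.5 and 23.0 M reads (M: mega), an estimate read off the spacing of low FPKM values. RPE markers were present in every sample, with a summed level of 12 genes between 5434 and 18244 FPKM, and Best1 was the only one of them listed at 0 in any sample. Markers of surface epithelium (cornea and conjunctiva) were present too, although the cornea had been cut away. The library of ZT14 replicate 3 stood apart: it listed 12754 genes above 0, against 16723 to 19374 in the other 29, and 31 of the 44 mitosis genes were at 0 in it. A 0 in such a table can be a failed estimate and is written here as "listed at 0".

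Promoter sequence was available in RefSeq (build GRCm38.p6) for 38 of the 44 genes, from 250 bases before to 50 after the transcript start. The CHR core TTTGAA, on either strand, lay between 100 bases before and 50 bases after the start in 29 of the 38 genes (76.3%), against 9.23% of all 27025 genes with a promoter and 7.94% of the 17492 protein-coding ones. At least 1 CCAAT (or ATTGG on the other strand) lay anywhere in the 300 bases in 29 of 38 genes (76.3%), against 41.1% of all genes. A CHR core near the start together with at least 2 CCAAT boxes was found in 18 of 38 genes (47.4%) and in 1.16% of all genes. A CHR core and a CCAAT box can share at most 1 base, and a match marks letters only. Birc5, Bub1, Ccnb1, Cenpe, Melk, Nek2, Nuf2 and Nusap1 had no CHR core in the window. Of these genes, Birc5, Melk, Nuf2 and Nusap1 had no CCAAT box either, and Pbk was among the genes without promoter sequence. The promoters of 5 genes are shown as examples that hold both motifs, and do not stand for all 38: Cdc20, Plk1, Ccnb2, Cdk1 and Top2a. Capitals mark TTTGAA or its reverse complement TTCAAA, and CCAAT or its reverse complement ATTGG, and each runs 5′ to 3′ along the strand of its gene.
Cdc20 (chr4:118437294-118437593, minus strand): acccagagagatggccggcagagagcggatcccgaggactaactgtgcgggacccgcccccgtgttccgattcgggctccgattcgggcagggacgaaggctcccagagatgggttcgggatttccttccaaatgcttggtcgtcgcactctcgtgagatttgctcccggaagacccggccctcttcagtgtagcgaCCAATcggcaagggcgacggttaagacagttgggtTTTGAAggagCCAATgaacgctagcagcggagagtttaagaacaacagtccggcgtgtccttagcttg
Plk1 (chr7:122159185-122159484, plus strand): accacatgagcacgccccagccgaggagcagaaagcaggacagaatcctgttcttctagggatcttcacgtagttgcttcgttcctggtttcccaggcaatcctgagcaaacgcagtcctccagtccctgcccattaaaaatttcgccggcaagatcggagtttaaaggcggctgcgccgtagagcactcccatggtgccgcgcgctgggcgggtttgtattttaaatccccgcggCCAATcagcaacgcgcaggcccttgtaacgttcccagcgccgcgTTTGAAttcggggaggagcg
Ccnb2 (chr9:70421505-70421804, minus strand): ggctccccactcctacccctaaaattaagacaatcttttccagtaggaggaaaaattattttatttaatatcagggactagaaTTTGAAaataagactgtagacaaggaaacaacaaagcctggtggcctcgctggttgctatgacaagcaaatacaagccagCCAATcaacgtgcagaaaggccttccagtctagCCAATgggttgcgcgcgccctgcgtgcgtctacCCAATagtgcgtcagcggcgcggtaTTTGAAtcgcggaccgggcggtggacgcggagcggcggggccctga
Cdk1 (chr10:69352863-69353162, minus strand): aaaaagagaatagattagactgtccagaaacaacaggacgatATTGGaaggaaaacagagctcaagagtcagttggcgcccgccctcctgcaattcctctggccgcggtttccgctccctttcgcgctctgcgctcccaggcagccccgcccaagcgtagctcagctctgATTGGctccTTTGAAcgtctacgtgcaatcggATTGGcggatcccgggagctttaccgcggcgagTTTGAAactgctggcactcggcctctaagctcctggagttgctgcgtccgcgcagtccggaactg
Top2a (chr11:99024140-99024439, minus strand): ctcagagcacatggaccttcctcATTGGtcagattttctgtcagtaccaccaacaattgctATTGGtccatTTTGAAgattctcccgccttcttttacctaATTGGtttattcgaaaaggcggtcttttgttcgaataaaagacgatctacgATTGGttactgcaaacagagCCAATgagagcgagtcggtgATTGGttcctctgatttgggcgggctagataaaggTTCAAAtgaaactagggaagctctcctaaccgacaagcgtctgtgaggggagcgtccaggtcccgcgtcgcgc
In Cdc20 the CHR core stands between a pair of CCAAT boxes. Top2a carries 6 CCAAT boxes, Ccnb2 and Cdk1 carry 3 each, and Plk1 carries 1.

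Across the day the mitosis genes as a group stood highest around dawn and lowest late in the night. The mean log2(FPKM + 1) over the 44 genes had a median of 3.08 over the 5 mice at ZT0 (range 2.15 to 3.73) and of 2.75 at ZT2 (2.46 to 2.90). It was 1.90 at ZT4 (1.36 to 2.91), 2.14 at ZT9 (1.41 to 2.38), 1.72 at ZT14 (0.86 to 2.04) and 1.38 at ZT19 (1.07 to 1.5). Every ZT0 and every ZT2 sample thus stood above every ZT19 sample, while single ZT4 samples ranged from the ZT19 level to the ZT2 level. Of the 44 genes, 27 had their highest mean at ZT0 and 14 at ZT2, whereas 27 had their lowest at ZT19 and 13 at ZT14. Over all 16741 genes tested, 17.9% were highest at ZT0, 16.0% at ZT2, 18.6% lowest at ZT19 and 25% lowest at ZT14. Without ZT14 replicate 3 the ZT0 and ZT19 counts were again 27 and 27, and 11 genes were lowest at ZT14. In bulk tissue, fewer dividing cells and less of these messages per cell cannot be told apart.

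**Figure D1:**
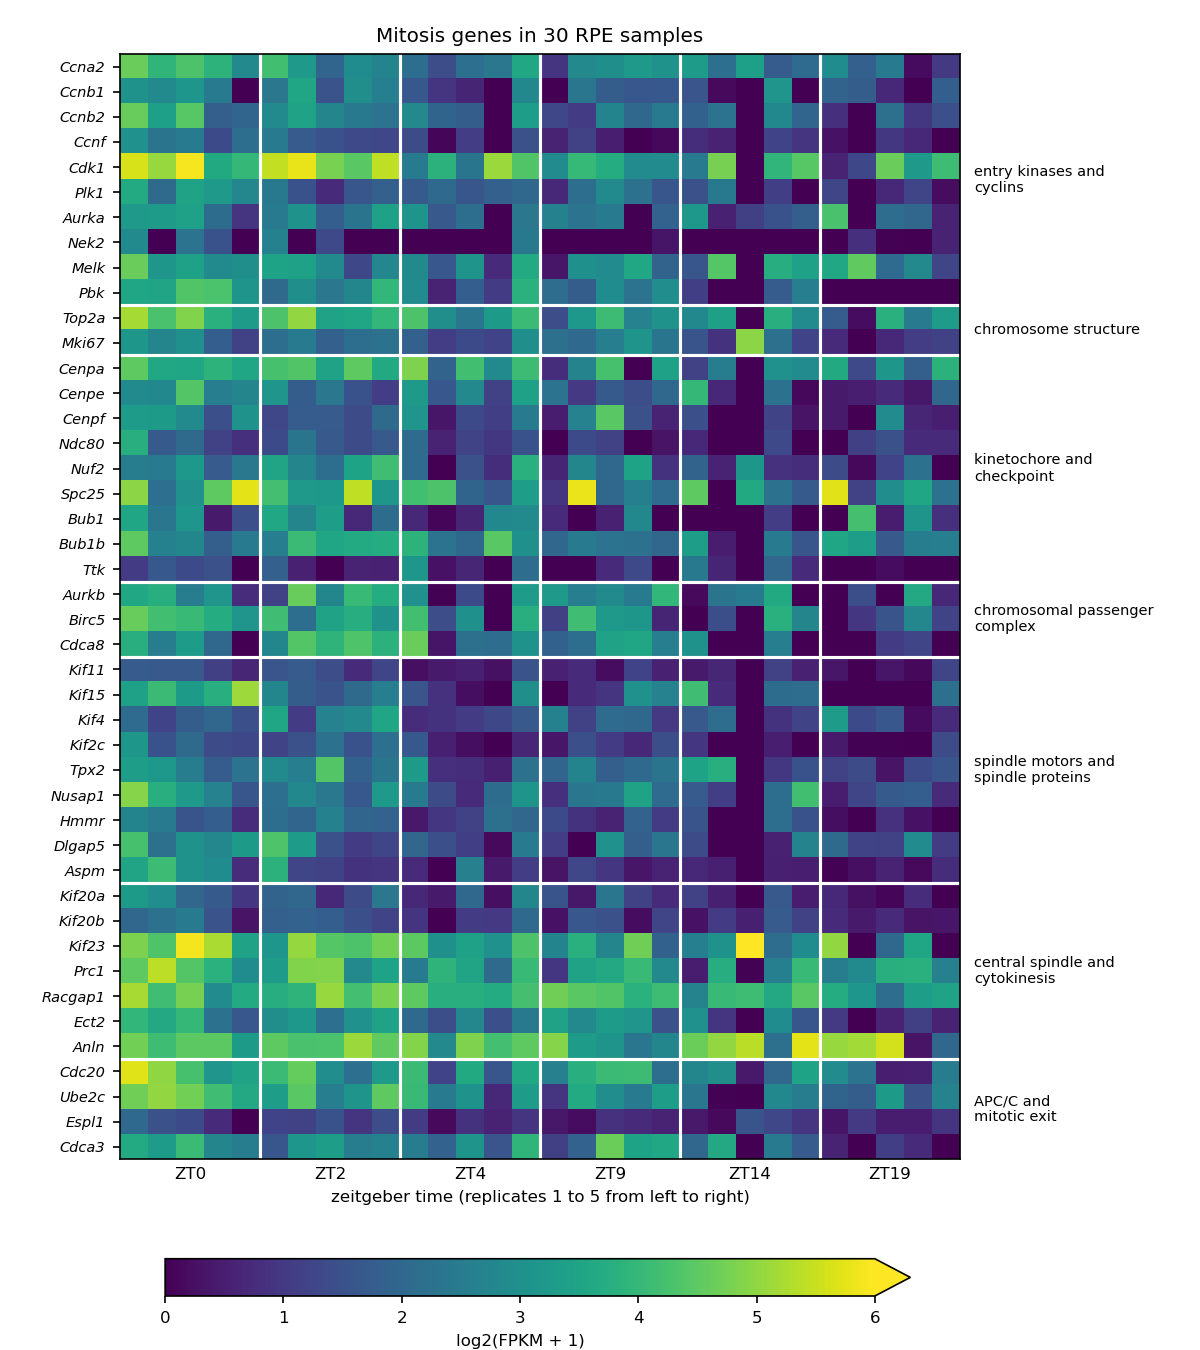
Level of the 44 mitosis genes (rows, grouped by role) in the 30 samples (columns, 5 mice per zeitgeber time), coloured by log2(FPKM + 1) from 0 (dark) to 6 or more (yellow). Most rows are brightest in the ZT0 and ZT2 columns and darkest at ZT19. The dark column at ZT14 is replicate 3, in which 31 of the 44 genes were listed at 0.

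Levels differed widely between genes on the per-length FPKM scale. Means over the 30 samples ran from 0.819 FPKM for Nek2, a centrosome kinase listed at 0 in 20 samples, to 21.2 FPKM for Anln, the actin-binding protein anillin of the cleavage furrow. Of the 44 genes, 9 had a mean of at least 10 FPKM and 21 of at least 5, and 7 were above 0 in all 30 samples. For scale, Rpe65, the isomerase of the visual cycle in RPE, ranged from 336 to 1648 FPKM. At this depth 1 read was worth an estimated 0.0273 to 0.0504 FPKM in Pbk, with 1791 bases of exon. In Kif23, with 7901 bases, it was worth 0.00565 to 0.0104 FPKM. Values near these steps rest on small numbers of reads, whereas differences of several FPKM are many steps wide.

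The entry kinases and cyclins switch the cell into mitosis, and the kinase gene Pbk showed the widest contrast among them. Gene spans are given on build mm10 from the GENCODE M21 annotation. Pbk (ENSMUSG00000022033, chr14:65805837-65817822, plus strand), a mitotic kinase of the MAPKK-related family, stood at 10.6, 10.3, 19.8, 18.6 and 7.63 FPKM in the 5 ZT0 mice and at 3.20, 6.94, 4.18, 5.72 and 14.8 FPKM at ZT2. Pbk values at ZT4 were 6.43, 0.519, 2.45, 1.11 and 13.2 FPKM, and at ZT9 3.43, 2.41, 6.57, 3.87 and 6.72 FPKM. At night, Pbk had 1.17, 0, 0, 2.34 and 4.93 FPKM at ZT14 and was listed at 0 in all 5 mice at ZT19. All 5 ZT0 samples stood above every sample of ZT9, ZT14 and ZT19, and all 5 ZT19 samples were listed at 0, while ZT2 replicate 5 and ZT4 replicate 5 fell within the ZT0 range.

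Cdk1 (ENSMUSG00000019942, chr10:69335146-69352938, minus strand), the kinase that drives entry into mitosis with its cyclin partners, stood at 49.0, 32.7, 59.7, 11.6 and 15.0 FPKM in the 5 ZT0 mice and at 42.4, 54.4, 26.6, 21.2 and 42.2 FPKM at ZT2. Cdk1 values at ZT4 were 4.6, 13.5, 4.04, 33.0 and 19.7 FPKM, and at ZT9 6.41, 15.1, 12.1, 6.46 and 6.43 FPKM. At night, Cdk1 had 4.64, 26.2, 0, 14.6 and 20.8 FPKM at ZT14 and 0.482, 1.46, 23.6, 8.49 and 16.7 FPKM at ZT19. All 5 ZT2 samples were above all 5 ZT9 samples, but the ZT0 and ZT19 ranges overlapped, with 23.6 FPKM in ZT19 replicate 3 above 2 of the ZT0 samples. Melk (ENSMUSG00000035683, chr4:44300876-44364675, plus strand), a kinase of the AMPK-related family that is abundant in proliferating cells, stood at 23.7, 8.03, 9.88, 6.29 and 6.89 FPKM in the 5 ZT0 mice and at 10.1, 9.78, 6.26, 1.45 and 5.83 FPKM at ZT2. Melk values at ZT4 were 6.33, 2.09, 7.54, 0.628 and 11.8 FPKM, and at ZT9 0.285, 7.12, 6.48, 10.9 and 2.75 FPKM. At night, Melk had 2.05, 20.5, 0, 12.3 and 9.75 FPKM at ZT14 and 10.9, 22.4, 3.25, 6.06 and 1.38 FPKM at ZT19. Melk followed no order of time: its 3 highest values came from ZT0, ZT19 and ZT14, and every pair of time points overlapped.

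**Figure D2:**
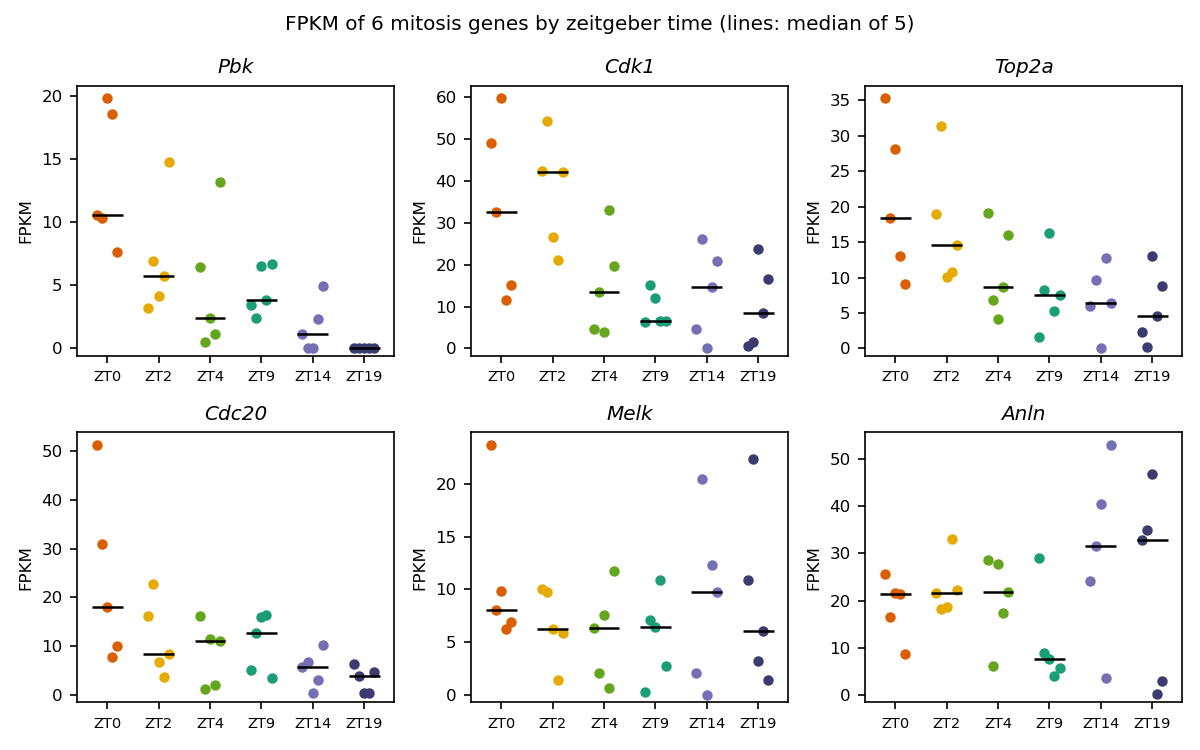
FPKM of 6 mitosis genes at each zeitgeber time, 1 point per mouse and a line at the median of 5. Pbk ran from a ZT0 median of 10.6 FPKM to 0 in all 5 ZT19 samples, Cdk1, Top2a and Cdc20 were lower at ZT19 than at ZT0 with differing overlap, and Melk and Anln had high values at night.

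Among the other entry genes, Plk1 (polo-like kinase, which acts from entry to cytokinesis) and Ccnf (cyclin F, a substrate receptor of a ubiquitin ligase) stood higher in every ZT0 than in every ZT19 sample. Plk1 had a median of 8.43 FPKM at ZT0 and 0.595 at ZT19, and Ccnf had 3.94 and 0.224. The cyclins Ccna2, Ccnb1 and Ccnb2, partners of Cdk1, had ZT0 medians of 14.2, 6.14 and 9.5 FPKM and ZT19 medians of 2.60, 2.41 and 0.953, with overlapping ranges. For Aurka, the centrosome and spindle pole kinase, the medians were 8.28 and 2.96 FPKM.

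In the chromosome structure pair, Top2a (ENSMUSG00000020914, chr11:98992943-99024189, minus strand), the topoisomerase that untangles sister DNA, stood at 35.3, 18.4, 28.1, 13.0 and 9.04 FPKM in the 5 ZT0 mice and at 19.0, 31.4, 10.0, 10.7 and 14.6 FPKM at ZT2. Top2a values at ZT4 were 19.1, 6.78, 4.09, 8.61 and 16.1 FPKM, and at ZT9 1.65, 8.18, 16.3, 5.30 and 7.5 FPKM. At night, Top2a had 5.92, 9.64, 0, 12.8 and 6.42 FPKM at ZT14 and 2.37, 0.139, 13.0, 4.51 and 8.80 FPKM at ZT19. The ZT0 and ZT19 ranges overlapped, 9.04 FPKM being the lowest at ZT0 and 13.0 the highest at ZT19. Mki67 (ENSMUSG00000031004, chr7:135689784-135716361, minus strand), the proliferation marker Ki-67 that coats mitotic chromosomes, stood at 8.09, 5.63, 7.04, 2.48 and 1.27 FPKM in the 5 ZT0 mice and at 3.49, 4.57, 2.56, 3.53 and 3.75 FPKM at ZT2. Mki67 values at ZT4 were 2.57, 1.11, 1.53, 1.30 and 6.99 FPKM, and at ZT9 3.63, 3.17, 4.92, 7.59 and 4.02 FPKM. At night, Mki67 had 1.95, 0.828, 29.8, 3.66 and 1.30 FPKM at ZT14 and 0.658, 0.00644, 0.620, 1.13 and 1.25 FPKM at ZT19. Every ZT0 sample was above every ZT19 sample by a narrow margin (1.27 against 1.25 FPKM), and the highest of all 30 values was in ZT14 replicate 3, the library with many genes listed at 0.

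Kinetochore and checkpoint genes link chromosomes to the spindle and hold division until all are attached. Spc25 (ENSMUSG00000005233, chr2:69193895-69206194, minus strand), a subunit of the NDC80 complex that grips microtubules, stood at 30.2, 3.58, 7.24, 21.7 and 52.8 FPKM in the 5 ZT0 mice and at 17.5, 8.46, 8.25, 42.3 and 8.09 FPKM at ZT2. Spc25 values at ZT4 were 17.2, 19.0, 2.84, 2.05 and 9.27 FPKM, and at ZT9 0.879, 55.6, 3.01, 5.05 and 3.27 FPKM. At night, Spc25 had 22.0, 0, 11.5, 3.80 and 2.26 FPKM at ZT14 and 51.9, 1.26, 6.73, 10.7 and 3.78 FPKM at ZT19. Single samples at ZT0, ZT9 and ZT19 exceeded 50 FPKM, and all 6 time points overlapped. Cenpa (ENSMUSG00000029177, chr5:30666777-30674830, plus strand), the histone H3 variant that marks centromeres, stood at 21.7, 11.1, 10.7, 13.7 and 10.6 FPKM in the 5 ZT0 mice and at 18.1, 19.8, 10.0, 21.8 and 11.5 FPKM at ZT2. Cenpa values at ZT4 were 27.8, 2.76, 17.3, 6.27 and 16.4 FPKM, and at ZT9 0.723, 5.43, 18.2, 0 and 9.83 FPKM. At night, Cenpa had 1.22, 4.75, 0, 7.17 and 6.40 FPKM at ZT14 and 11.5, 1.51, 8.10, 2.52 and 13.4 FPKM at ZT19. All ZT0 and ZT2 samples stood above all ZT14 samples, and ZT4, ZT9 and ZT19 overlapped with both. Of the other 7 genes of this role, Cenpe, a kinesin of the kinetochore, did not overlap between ZT0 (median 6.02 FPKM) and ZT19 (0.428). The checkpoint kinase gene Bub1b had nearly equal medians, 5.20 FPKM at ZT0 and 4.88 at ZT19.

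The chromosomal passenger complex corrects faulty attachments and later guides the cut. Birc5 (ENSMUSG00000017716, chr11:117849251-117855743, plus strand), which encodes survivin, stood at 23.5, 17.2, 15.8, 12.1 and 7.72 FPKM in the 5 ZT0 mice and at 16.9, 3.47, 10.0, 12.5 and 7.29 FPKM at ZT2. Birc5 values at ZT4 were 17.3, 1.68, 7.05, 0 and 12.9 FPKM, and at ZT9 1.21, 16.8, 8.52, 8.09 and 0.526 FPKM. At night, Birc5 had 0, 1.70, 0, 13.1 and 5.63 FPKM at ZT14 and 0, 0.944, 1.92, 5.87 and 1.34 FPKM at ZT19. ZT0 lay above ZT19 without overlap, 7.72 FPKM against 5.87 at the nearest, whereas ZT14 replicate 4 reached the ZT0 range. Cdca8 (ENSMUSG00000028873, chr4:124918465-124939311, minus strand), which encodes borealin, stood at 12.6, 4.86, 8.97, 3.10 and 0 FPKM in the 5 ZT0 mice and at 5.78, 20.0, 13.9, 19.4 and 13.4 FPKM at ZT2. Cdca8 values at ZT4 were 23.8, 0.274, 3.61, 3.42 and 7.36 FPKM, and at ZT9 2.64, 3.46, 10.1, 10.6 and 4.91 FPKM. At night, Cdca8 had 7.31, 0, 0, 4.95 and 0.0155 FPKM at ZT14 and 0, 0, 1.09, 1.40 and 0 FPKM at ZT19. Here ZT2 and not ZT0 lay wholly above ZT19, since ZT0 replicate 5 was listed at 0. The catalytic kinase gene of the complex, Aurkb, had medians of 7.75 FPKM at ZT0 and 0.612 at ZT19.

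Spindle motors and spindle proteins build and focus the microtubule array. Nusap1 (ENSMUSG00000027306, chr2:119618298-119651244, plus strand), which bundles spindle microtubules near chromosomes, stood at 29.1, 12.8, 8.27, 5.32 and 2.03 FPKM in the 5 ZT0 mice and at 3.54, 5.92, 4.25, 2.14 and 8.32 FPKM at ZT2. Nusap1 values at ZT4 were 4.64, 1.64, 0.673, 3.34 and 7.66 FPKM, and at ZT9 0.793, 4.12, 4.34, 10.1 and 3.26 FPKM. At night, Nusap1 had 2.31, 1.16, 0, 3.53 and 17.1 FPKM at ZT14 and 0.371, 1.38, 2.24, 2.49 and 0.637 FPKM at ZT19. The highest value came from ZT0 and the next highest from ZT14 replicate 5, and ZT0 replicate 5 fell within the ZT19 range. Kif15 (ENSMUSG00000036768, chr9:122951046-123018733, plus strand), a plus-end kinesin that helps keep the spindle bipolar, stood at 9.83, 16.1, 8.59, 12.8 and 33.7 FPKM in the 5 ZT0 mice and at 5.79, 2.40, 1.90, 3.25 and 4.89 FPKM at ZT2. Kif15 values at ZT4 were 2.00, 0.806, 0.176, 0 and 6.91 FPKM, and at ZT9 0, 0.658, 0.896, 7.16 and 5.31 FPKM. At night, Kif15 had 16.8, 0.649, 0, 3.34 and 3.43 FPKM at ZT14 and 0, 0, 0, 0 and 3.63 FPKM at ZT19. All 5 ZT0 samples were above every sample of ZT2, ZT4, ZT9 and ZT19, and ZT14 replicate 1 alone reached them from the remaining group. Tpx2, which activates Aurora A on the spindle, also had every ZT0 sample above every ZT19 sample (medians 4.78 and 1.53 FPKM). Aspm, which focuses spindle poles, had medians of 7.30 and 0.184 FPKM at these times, with overlap.

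Genes of the central spindle and cytokinesis place and close the cleavage furrow, and the most abundant of them, Anln, did not share the order of the group. Anln (ENSMUSG00000036777, chr9:22332012-22389188, minus strand) stood at 25.6, 16.5, 21.6, 21.5 and 8.71 FPKM in the 5 ZT0 mice and at 21.7, 18.3, 18.7, 33.1 and 22.3 FPKM at ZT2. Anln values at ZT4 were 28.6, 6.07, 27.9, 17.4 and 21.9 FPKM, and at ZT9 29.1, 8.90, 7.56, 4.10 and 5.69 FPKM. At night, Anln had 24.2, 31.6, 40.4, 3.63 and 53.0 FPKM at ZT14 and 33.0, 34.9, 46.9, 0.241 and 2.94 FPKM at ZT19. Its ZT19 median of 33.0 FPKM was above its ZT0 median of 21.5, and 4 of 5 ZT9 samples were lower than every ZT2 sample. Kif23 (ENSMUSG00000032254, chr9:61915905-61946774, minus strand), the kinesin of the centralspindlin complex, stood at 27.4, 19.2, 58.2, 37.0 and 9.93 FPKM in the 5 ZT0 mice and at 7.83, 32.3, 20.3, 18.9 and 25.4 FPKM at ZT2. Kif23 values at ZT4 were 21.4, 7.03, 9.83, 7.14 and 19.1 FPKM, and at ZT9 5.49, 13.0, 5.65, 25.1 and 2.63 FPKM. At night, Kif23 had 5.04, 7.39, 149, 3.41 and 6.61 FPKM at ZT14 and 31.4, 0, 3.10, 10.6 and 0 FPKM at ZT19. ZT0 and ZT19 overlapped, and the highest value of any mitosis gene in any sample, 149 FPKM, was that of Kif23 in ZT14 replicate 3. Ect2, the exchange factor that activates RhoA at the furrow, and Kif20a, a kinesin of the midzone, had no overlap between ZT0 and ZT19, with medians of 11.4 and 0.509 FPKM and of 2.97 and 0.208 FPKM. Racgap1, the partner of Kif23, was above 0 in all 30 samples and had medians of 17.0 and 9.36 FPKM.

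APC/C is the ubiquitin ligase that ends mitosis by having cyclin B and securin destroyed. Cdc20 (ENSMUSG00000006398, chr4:118432901-118437352, minus strand), its activator, stood at 51.3, 31.0, 18, 7.77 and 9.97 FPKM in the 5 ZT0 mice and at 16.1, 22.8, 6.67, 3.60 and 8.30 FPKM at ZT2. Cdc20 values at ZT4 were 16.1, 1.30, 11.4, 2.03 and 11.1 FPKM, and at ZT9 5.13, 12.7, 16.1, 16.3 and 3.50 FPKM. At night, Cdc20 had 5.79, 6.83, 0.332, 2.97 and 10.2 FPKM at ZT14 and 6.44, 3.88, 0.411, 0.448 and 4.77 FPKM at ZT19. Every ZT0 sample exceeded every ZT19 sample, by 7.77 against 6.44 FPKM at the nearest. Ube2c (ENSMUSG00000001403, chr2:164769898-164778822, plus strand), the ubiquitin-conjugating enzyme that works with it, stood at 25.2, 31.7, 25.6, 16.8 and 11.3 FPKM in the 5 ZT0 mice and at 9.36, 21.2, 4.90, 7.60 and 22.0 FPKM at ZT2. Ube2c values at ZT4 were 15.5, 4.48, 7.30, 0.598 and 8.96 FPKM, and at ZT9 0.912, 11.7, 6.63, 4.65 and 9.32 FPKM. At night, Ube2c had 4.16, 0.0243, 0, 6.00 and 4.83 FPKM at ZT14 and 2.79, 2.42, 8.61, 1.79 and 5.46 FPKM at ZT19. ZT0 stood above both ZT14 and ZT19 without overlap, the nearest values being 11.3 and 8.61 FPKM. The exons of Ube2c overlap over 592 bases with those of Tnnc2, a muscle troponin gene on the opposite strand, and whether strand was used in counting is not given in the sources used here. Tnnc2 ranged from 255 to 2554 FPKM, and across the 30 samples its Pearson correlation with Ube2c was -0.25. Longer overlaps of this kind join Kif20a to Cdc23 (1271 bases), Prc1 to Rccd1 (911) and Kif4 to Pdzd11 (832). Shorter ones exist too, such as Ccna2 with Exosc9 (510). Cdc23 ranged from 17.9 to 44.4 FPKM, above the levels of Kif20a, and its correlation with Kif20a was 0.01. Cdca3, a trigger of mitotic entry that APC/C removes, had medians of 8.79 FPKM at ZT0 and 0.493 at ZT19 without overlap, and Espl1, the protease separase, had 1.56 and 0.406.

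Set side by side, the mean of log2(FPKM + 1) was higher at ZT0 than at ZT19 in all 44 genes, against 48.6% of all genes tested. On the linear scale 3 genes had the higher mean at ZT19: Anln with 23.6 FPKM against 18.8, Kif4, a chromosome-bound kinesin, with 2.66 against 2.34, and Bub1, a checkpoint kinase, with 5.32 against 4.97. This comparison is the one the choice of genes rested on, so the count is a description. The median difference was 1.59 (all genes -0.02), from 0.10 in Bub1b to 3.76 in Pbk, and the Pbk value depends on the added 1 because all ZT19 samples were listed at 0. By role the median differences were 2.39 for APC/C and mitotic exit, 1.98 for entry kinases and cyclins, 1.87 for the passenger complex, 1.82 for chromosome structure, 1.51 for spindle proteins, 1.2 for the central spindle and 1.07 for kinetochore and checkpoint. In 13 of the 44 genes every ZT0 sample was above every ZT19 sample, against 2.99% of all genes. These were Pbk, Plk1, Ccnf, Mki67, Cenpe, Birc5, Kif15, Tpx2, Kif20a, Ect2, Cdc20, Ube2c and Cdca3. Among them the difference was 3.50 ± 0.67 (SE) for Kif15, 2.37 ± 0.44 for Plk1 and 1.88 ± 0.36 for Ccnf, each from 5 mice against 5. The SE come from the limma fit of all 30 samples and not from the spread of these mice alone.

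Day samples (ZT2 to ZT9) set against night samples (ZT14 and ZT19) gave smaller differences on the same log2 scale. They were positive in 42 of 44 genes, against 53.3% of all genes, with a median of 0.72 (all genes 0.02). The largest was Cdca8 at 2.22 ± 0.46 (15 day samples against 10 night samples, SE again from the fit of all 30 samples). The negative ones were Melk at -0.24 ± 0.48 and Anln at -0.09 ± 0.48. Pbk stood at 1.89 ± 0.33. In a 24 h cosine fit the median amplitude, the distance from fitted mean to peak, was 0.68 among the mitosis genes and 0.22 over all genes. An amplitude is never negative and grows with the spread of a gene. The median SE of the day minus night difference was 0.39 for the mitosis genes and 0.25 over all genes. The part of this spread in the amplitudes was not tested.

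Markers of surface epithelium moved with the mitosis genes from sample to sample. All 18 of these markers passed the filter, among them the corneal and stratified keratins Krt12 and Krt5 and the corneal enzyme gene Aldh3a1, and Ly6d was the only one listed at 0 in any sample. Their summed level ran from 12758 to 25543 FPKM at ZT0, 12085 to 20854 at ZT2, 2823 to 25458 at ZT4, 3170 to 23691 at ZT9, 4226 to 17634 at ZT14 and 3071 to 4986 at ZT19. Every ZT0 and ZT2 sample therefore held more of these messages than every ZT19 sample, as it did of the mitosis genes. The summed RPE markers went the other way, from 6634 to 11717 FPKM at ZT0 and from 12542 to 16760 at ZT19.

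**Figure D3:**
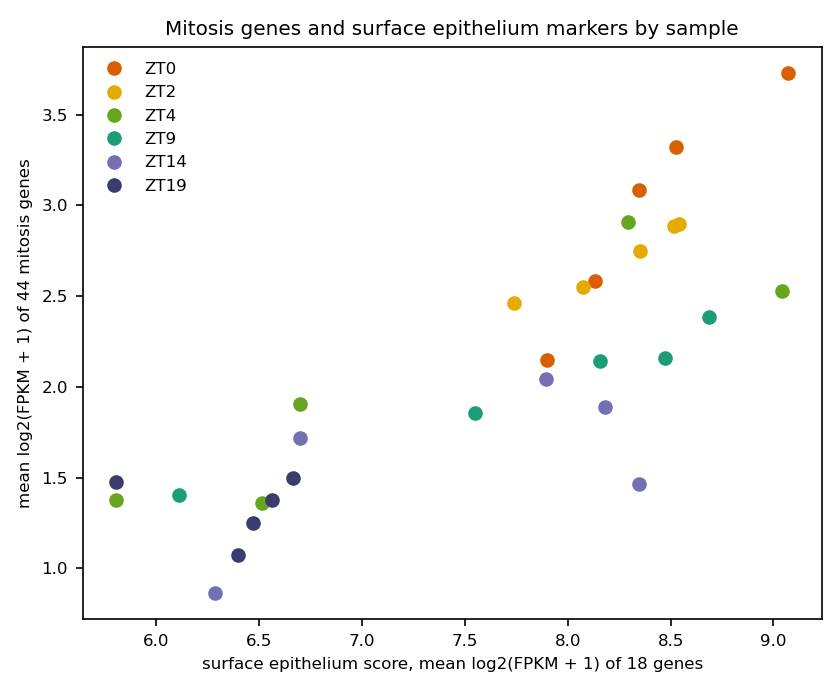
Mean log2(FPKM + 1) of the 44 mitosis genes (vertical) against the mean of the 18 surface epithelium markers (horizontal), 1 point per sample coloured by zeitgeber time. ZT19 samples lie at the lower left, with marker means of 5.80 to 6.66, and ZT0 samples at the upper right, with 7.90 to 9.07. ZT4 and ZT9 samples spread from low to high marker means. Samples of like marker mean can differ in the mitosis mean. At a marker mean of 8.35, ZT14 replicate 2 has 1.46 and ZT0 replicate 2 has 3.08. ZT4 replicate 1 has 2.53 at 9.04, against 3.73 at 9.07 in ZT0 replicate 1. ZT4 replicate 5 goes the other way, with 2.91 at 8.29 against 2.58 at 8.13 in ZT0 replicate 4.

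A test within time points, which leaves aside the time differences behind the choice of genes, concerned the surface epithelium. It asked whether mice of the same time point with more of its markers also had more of each mitosis message. The 44 genes and the marker list were both set with earlier results of these data known, which the p-values do not allow for. The slope is in log2 units of the gene per log2 unit of the marker mean, with time points held in the fit. It was positive in 42 of 44 genes, against 50.7% of all genes, with a median of 0.40 (all genes 0.00). With limma and Benjamini-Hochberg adjustment over 16741 genes, 11 of 44 rose with the score and 0 fell, where 5.29% of all genes rose and 2.56% fell. Melk had the steepest slope, 0.99 ± 0.22 (SE, 30 samples, adjusted p = 0.00435). Ttk, the checkpoint kinase MPS1, had the smallest adjusted p of the 44 in limma, 0.00158, at a less steep slope of 0.72 ± 0.15. Cdc20 (0.86 ± 0.20, adjusted p = 0.00684) and Tpx2 (0.77 ± 0.18, adjusted p = 0.00741) also rose with the score.

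The remaining 7 that rose were Cdca3, Ccnb2, Ccnb1, Cdca8, Top2a, Plk1 and Birc5, with limma slopes from 0.48 to 0.84 and adjusted p from 0.0174 to 0.0449. By role these 11 were 4 of 10 entry genes, 2 of 3 passenger genes, 2 of 4 mitotic exit genes, and 1 each of chromosome structure, kinetochore and spindle genes, with 0 of 7 from the central spindle group. Ube2c (0.64 ± 0.21, adjusted p = 0.0623 in limma) and Pbk (0.37 ± 0.19, adjusted p = 0.265) did not pass, nor did Cdk1 and Mki67 with slopes of 0.18 ± 0.30 and 0.08 ± 0.21. Anln at -0.27 ± 0.29 and Hmmr at -0.05 ± 0.16, a hyaluronan-binding spindle protein, had negative slopes. The count was 6 without ZT9 replicate 1 and 7 without ZT14 replicate 3, and it was 5 with the side of the eye or with 4 further tissue scores in the fit. The share of all genes called in these further fits was not taken, so their counts cannot be set against it.

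**Figure D4:**
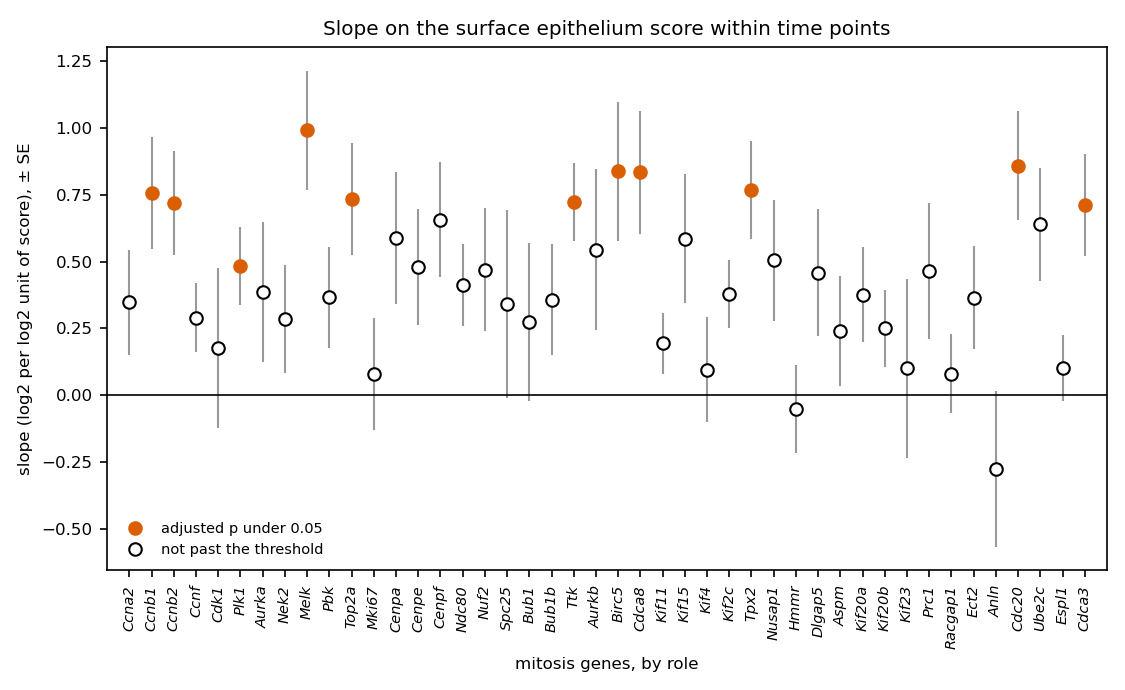
Slope of each of the 44 mitosis genes on the surface epithelium score within time points (log2 per log2 unit, ± SE over 30 samples). Filled points are the 11 genes past an adjusted p of 0.05, Melk being the highest at 0.99, and 42 of 44 points lie above 0.

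With the score held in the fit, the time differences on the log2(FPKM + 1) scale were smaller. ZT0 against ZT19 then had a median of 0.70 over the mitosis genes with 37 of 44 positive (48.4% of all genes). The choice of genes rested on this same comparison, so the count is again a description and not a test. Pbk kept a difference of 3.02 ± 0.62 and Kif15 of 2.32 ± 0.79, whereas Melk went from 0.56 ± 0.74 to -1.44 ± 0.73 and Ccnb1 from 1.08 ± 0.65 to -0.45 ± 0.68. Day against night had a median of 0.45 with 39 of 44 positive (52.3% of all genes). Time and score overlap, since no ZT19 sample reached the score of any ZT0 sample, so their parts in the difference cannot be told apart in these 10 samples.

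**Figure D5:**
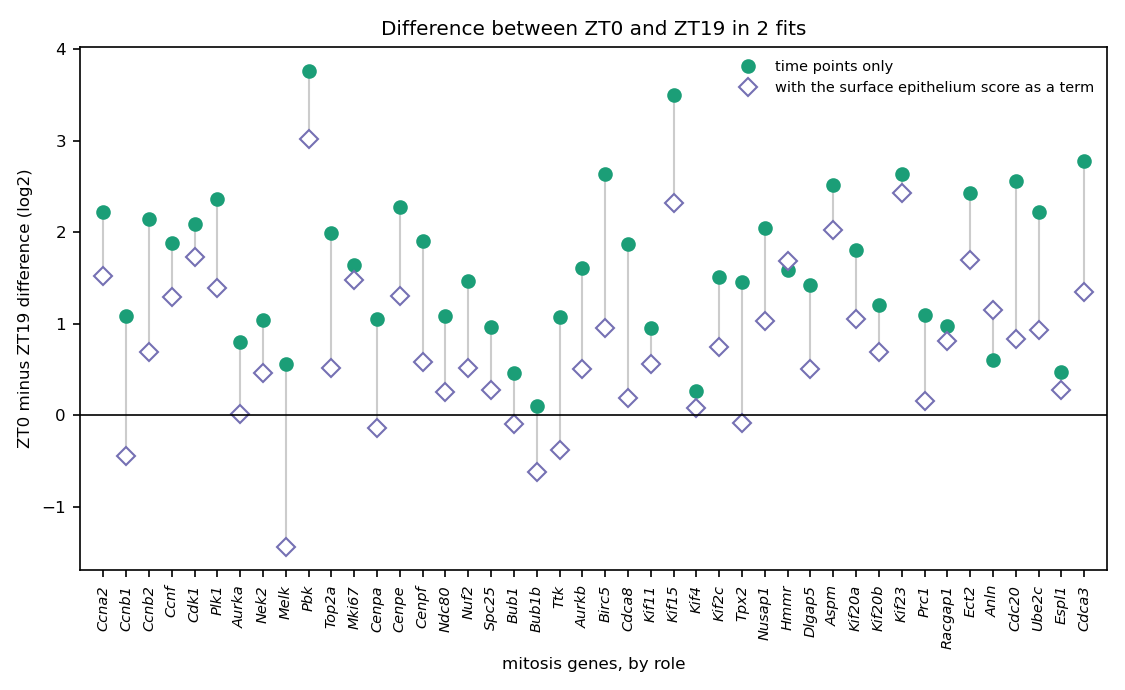
Difference between ZT0 and ZT19 (log2(FPKM + 1), 5 mice each) for the 44 mitosis genes, from the fit on time points only (filled) and with the surface epithelium score as a term (open diamonds). The filled points have a median of 1.59 and the diamonds of 0.70, and the pairs lie close together for Mki67, Kif23 and Hmmr and far apart for Melk and Cdc20.

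Scores of other tissues were tested in the same way, with few calls. On the rod photoreceptor score 1 of 44 rose, Spc25 (slope 0.46 ± 0.10, adjusted p = 0.00260 in limma, 30 samples), where 3.96% of all genes rose. On the oligodendrocyte score 1 of 44 rose, Anln (0.60 ± 0.11, adjusted p = 0.00154 in limma), where 1.48% of all genes did. Both counts lie near the share over all genes and mark no trait of the 44 as a set. Anillin is also found in the myelin of oligodendrocytes, as background. With the runs of consecutive animal numbers in the labels as a term, neither passed: the slope was 0.45 for Spc25 (adjusted p = 0.0684 in limma) and 0.46 for Anln (adjusted p = 0.143). With limma, 0 of the 44 were called on the scores for RPE, stroma, skeletal muscle, immune cells, endothelium, blood or lens. Of all genes, 4.11%, 0.436%, 1.42%, 0.735%, 1.08%, 0.0299% and 0.0657% were called on these scores, in the same order. On the RPE score the median slope was -0.55, with 5 genes at an unadjusted p under 0.05 (17.1% of all genes). Spc25 and Anln were also the least like the rest: the Pearson correlation with the mean of the other 43 mitosis genes over 30 samples was 0.07 for Anln and 0.27 for Spc25. Left against right eyes called 0 of 44 (0% of all genes), with 5 at an unadjusted p under 0.05 and higher on the left (7.36% of all genes). The median difference was 0.31, and 35 of 44 were higher on the left (52.9% of all genes). The surface epithelium markers were higher on the left in 18 of 18, with a median difference of 0.76, and limma called 0 of them, with 9 at an unadjusted p under 0.05. Their part in the difference between eyes was not tested. All 5 ZT4 eyes were left ones, so that time adds nothing to the contrast.

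Other mitosis genes, a list of 62 with 58 tested, showed the same order with smaller differences. ZT0 was above ZT19 in 56 of 58, with a median of 0.94 on the log2(FPKM + 1) scale. The 4 most abundant of them differed: Smc4 and Ncapd2, subunits of condensin, had ZT0 minus ZT19 differences of 1.10 ± 0.46 and 1.06 ± 0.36, but Zwint, a kinetochore protein that is also high in neurons, had -0.40 ± 0.33 and Pttg1, which encodes securin, -0.45 ± 0.66. On the surface epithelium score 7 of 58 rose in limma (5.29% of all genes did), with 50 of 58 slopes positive and a median of 0.23: Ckap2l, Incenp, Oip5, Cks1b, Lmnb1, Cdkn3 and Tacc3. DNA replication genes, 33 of 34 tested, had a median of 0.62 with 28 of 33 positive. Their most abundant members, Pcna, Rrm1, Gins4 and Mcm6, lay between -0.21 and 0.40. On the surface score 3 of 33 rose, Rrm2, Tk1 and Dtl, with 27 of 33 slopes positive and a median of 0.31. With the surface score in the fit the medians were 0.57 for the other mitosis genes and 0.05 for the replication genes, beside the 0.70 of the 44. The 44 were picked after such genes had been seen to stand higher at ZT0 than at ZT19. That choice by itself can make their medians larger than those of these lists. The list differences themselves were not tested.

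The 44 genes varied together. Over the 946 pairs the median Pearson correlation across 30 samples was 0.41, with 915 pairs positive, and within time points it was 0.24, with 799 positive. Libraries share depth and tissue makeup, which move all pairs at once, and these correlations carry no p. Among the 10 genes outside the list most like the mean of the 44, by Pearson r over the 30 samples, were Emp2 (0.88), Tmprss11b, Ckap2l and Calml3 (each 0.86), Cd44 (0.85), and Kif18b, H60c, Galnt18 and Trim29 (each 0.84). Cd44 is a hyaluronan receptor and Tmprss11b a protease of squamous epithelia. Ckap2l and Kif18b belong to the list of other mitosis genes and Calml3 to the surface epithelium markers. Spearman's rho of these 9 lay between 0.80 and 0.87, and their r within time points between 0.70 and 0.82.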

How the data were processed

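RNA of 30 RPE samples (30 mice, 5 per zeitgeber time, 1 eye each) was sequenced as single reads of 75 bases, per the labels' protocols. The values are FPKM that the authors deposited as 1 table with decimal commas, 51904 Ensembl genes by 30 samples; counts were not used here. STAR, Cufflinks, DESeq2 and the build mm10 are named, without role or version, per the submitters' processing notes. The annotation, the use of strand and the handling of reads shared between genes are not given in the sources used here, so overlapping or duplicated genes may share reads. The pseudogene Ccnb2-ps was above 0 in 4 samples, with a highest value of 3.33 FPKM. Gene positions come from GENCODE M21 on the same assembly.

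Genes with at least 1 FPKM in at least 5 samples (16741) were fitted as log2(FPKM + 1) with limma (version 3.58.1, R version 4.3.3), letting the variance follow the mean level, and Benjamini-Hochberg adjustment at 0.05 over all of them. All tests were two-sided. Fold changes on this scale understate those of low genes. The fits were 1 mean per time point (any difference, day against night, ZT0 against ZT19), a 24 h cosine, slopes on tissue scores (mean log2 level of a marker list) beside the time points, and left against right eyes. The fits by time describe the members, with no calls on them, and tests are given for the slopes and for eye side. The fits were tested on simulated data with known changes in random genes. That simulation held no tissue score that followed time and no genes picked by their time course, so it does not bear on either. The members and lists were chosen with earlier results of these data known, and ZT0 against ZT19 was added after the data were seen. Values in every sample are given for Pbk and for the 2 genes of each role with the highest mean FPKM, the 4 most abundant genes of the other lists are named, and so are the 10 genes most like the mean of the members, of which 1 is not reported here. Promoters come from RefSeq. Depth was estimated at 12.5 to 23.0 M reads from the step between low values, and no counting interval is given. Alternatives covered the pseudocount, the filter, scaling, the variance trend, added terms and leaving out each mouse.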

Additional observations from a re-analysis of the deposited data

Results flagged for a closer look

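Among 90 groups of 5 mice (15 genes at 6 times), 3 held a sample far from the other 4 by the gap to its nearest neighbour on the log2(FPKM + 1) scale; chance gives about 1 in 20 groups. Top2a was listed at 0 in ZT14 replicate 3, where the other 4 mice had 5.92 to 12.8 FPKM. Kif23 stood at 149 FPKM in the same library, against 3.41 to 7.39 in the others. Kif15 was 3.63 FPKM in ZT19 replicate 5 and listed at 0 in the other 4. In ZT14 replicate 3, 31 of the 44 mitosis genes were listed at 0, and the part of that library in these values was not tested.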

How the results depend on the processing

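No paired analysis was possible because the replicate numbers were given in accession order and pair no mice. Under upper quartile scaling no count over the 44 genes moved by more than 1.5 times. No median moved by more than the median SE of the single genes, and the cosine amplitude was held to that SE for day minus night. This margin is wide, because it is the spread of single genes and not of a median over 44. With a pseudocount of 0.1 the medians were 1.35 for day minus night, 2.68 for ZT0 minus ZT19, 1.16 for the cosine amplitude and 0.69 for the surface epithelium slope. With the surface score, or with 5 tissue scores, the median ZT0 minus ZT19 difference was 0.70 or 0.66, and with 5 tissue scores 16 of the 44 genes were highest at ZT0. The surface slope count was 5 with eye side and 5 with 4 further scores, and the calls on other tissue scores were 0 with runs of animal numbers. Leaving out each mouse in turn gave 23 to 32 genes highest at ZT0, 41 to 43 higher by day (median 0.64 to 0.80), a cosine amplitude of 0.62 to 0.74, and 42 to 44 higher at ZT0 than at ZT19 (median 1.42 to 1.84). It gave 6 to 13 calls for the surface slope (median 0.37 to 0.49), 2 to 3 for other scores and 0 for eye side. For the calls in these alternatives the share over all genes was not taken. Of 659 alternatives for single slopes, 609 kept direction and side of the threshold, 37 lost the call, 6 gained it and 7 reversed, all 7 from slopes that had not passed. Most of the slopes had not passed in the main fit and had no call to lose, so the 609 say little of how stable the calls were. The reversed slopes were, with 4 further scores, -0.18 for Mki67, -0.36 for Spc25, 0.084 for Anln and -0.38 for Kif23. Leaving out single mice moved the slope from -0.12 (without ZT14 replicate 3) to 0.43 for Cdk1, from -0.012 (without ZT4 replicate 1) to 0.48 for Kif23 and from -0.022 (without ZT4 replicate 5) to 0.37 for Mki67. The cause was not tested. FPKM keeps no counts, so the depth behind a low value or a 0 is only estimated.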
